A study of Homo sapiens with 12 samples.

Results

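The nuclear-encoded subunits of the mitochondrial respiratory chain, and of the ATP synthase that it drives, were followed in HCT116 cells, a human colorectal carcinoma line, after treatment with the solvent DMSO or with trametinib (100 nM, 24 h), which blocks the kinases MEK1 and MEK2. All 12 libraries came from this line. Each treatment had 3 biological replicates, and each replicate gave an input library, in which cytoplasmic RNA was fragmented at random, and a library of ribosome-protected fragments (footprints), in which RNase I left the mRNA stretches that a ribosome covered. The genes were defined by symbol: every row starting with NDUF, UQCR, COX4, COX5, COX6, COX7, COX8 or ATP5, and SDHA, SDHB, SDHC, SDHD, CYC1 and CYCS. This rule, like the lists, motifs and complexes below, was set with earlier results of these data known. The rule gave 95 of the 15798 genes in the table, of which 85 reached 10 counts in 3 or more input libraries and were tested among 10663 genes. The tested members were 34 subunits and 8 assembly factors of complex I, 4 subunits of complex II, 8 of complex III with cytochrome c1, cytochrome c, 12 of complex IV and 18 of ATP synthase with its inhibitor. A change in input is a change in mRNA abundance, and a change in footprints is a change in the ribosomes on all mRNAs of a gene. A change in ribosome density is the footprint change beyond the input change. All are relative to the other genes, because scaling between libraries hides a change common to all mRNAs. By polysome profiling, the paper reports a smaller share of ribosomes in polysomes after this treatment of these cells. Such a common fall cannot be seen here, so an unchanged or higher value does not show unchanged or higher translation per cell.

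Complexes I and II pass electrons from NADH and succinate to ubiquinone, complex III passes them on to cytochrome c, and complex IV hands them to oxygen. Complexes I, III and IV pump protons across the inner membrane, and ATP synthase uses the return flow to make ATP. Most subunits are made on cytosolic ribosomes from nuclear genes and imported, whereas a small hydrophobic core is made inside the organelle from mitochondrial DNA. Nuclear respiratory factor 1 (NRF1), the GA-binding protein formed by GABPA and GABPB1, and coactivators of the PGC-1 family are known activators of the nuclear genes.

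Depth was 2276693 to 2845568 counts in reading frames per input library and 10127477 to 19181588 per footprint library, so that the footprint values of weakly expressed members rest on more reads than the input values. The ERK output list of 10 genes (DUSP6, SPRY4, ETV4 and others) was lower after trametinib in 10 of 10 genes in both assays. Of 9 epithelial markers, 6 had a mean normalised count of at least 10 in each group, while VIL1, LGALS4 and CEACAM5 were at or near 0. Of 8 markers of other cell types 7 had a row, and their summed normalised count was between 40.5 and 147 in every library, with PTPRC, CD3E, CD14, COL1A2 and PECAM1 at or near 0. COL1A1, on the same list, was not near 0. Its mean normalised count was 66.9 in DMSO input and 58.0 in trametinib input, and 42.2 and 48.8 in footprints, and it was not called. The summed epithelial count in input was 29269 to 44465 in DMSO and 48954 to 61128 with trametinib, 3 of 6 tested markers being higher. VWF, an endothelial marker, was higher as well, at 55.4 against 9.42 normalised input counts. Their part in the members' values was not tested.

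The respiratory chain transcripts moved downward on balance, and most individual genes did not pass the test. In input, 14 of 85 members were lower and 1 was higher after trametinib by edgeR's quasi-likelihood test with Benjamini-Hochberg adjustment at 0.05, where the background over all tested genes was 16.8% lower and 15.4% higher. In footprints 27 were lower and 2 higher, against a background of 25.6% lower and 23.9% higher. As shares, 16.5% of members were called lower in input, near the background, and 31.8% in footprints, against the 25.6% of all genes, while 1.18% and 2.35% were called higher. The median log2 change of the members was -0.15 in input and -0.22 in footprints, beside 0.00 and -0.01 over all tested genes. In ribosome density, 1 member was lower and 0 were higher, against a background of 1.00% lower and 0.0469% higher. An unadjusted p under 0.05 in density (edgeR) was reached by 6 of 85 members, beside 866 of all 10663 tested genes. DESeq2 called 1 member lower and 0 higher, and the member median was -0.06. With input and footprints of a lysate paired as a block, 19 genes of the whole table were higher and 144 lower in place of 5 and 107, and the members again had 0 and 1. With footprints scaled by library totals, which raises the median change of all genes to 0.16, the split was 10 lower and 4 higher with a member median of -0.05, and the 11.8% of members called lower then lay below the 18.2% of all genes. Without trametinib footprints replicate 2 it was 12.9% against 19.1%, and without replicate 1 it was 14.1% against 18.9%. The place of the members above or below the background in footprints thus depends on the scaling and on single libraries. Because these are bulk lysates, fewer transcripts per cell and fewer cells that express a gene cannot be told apart.

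**Figure D1:**
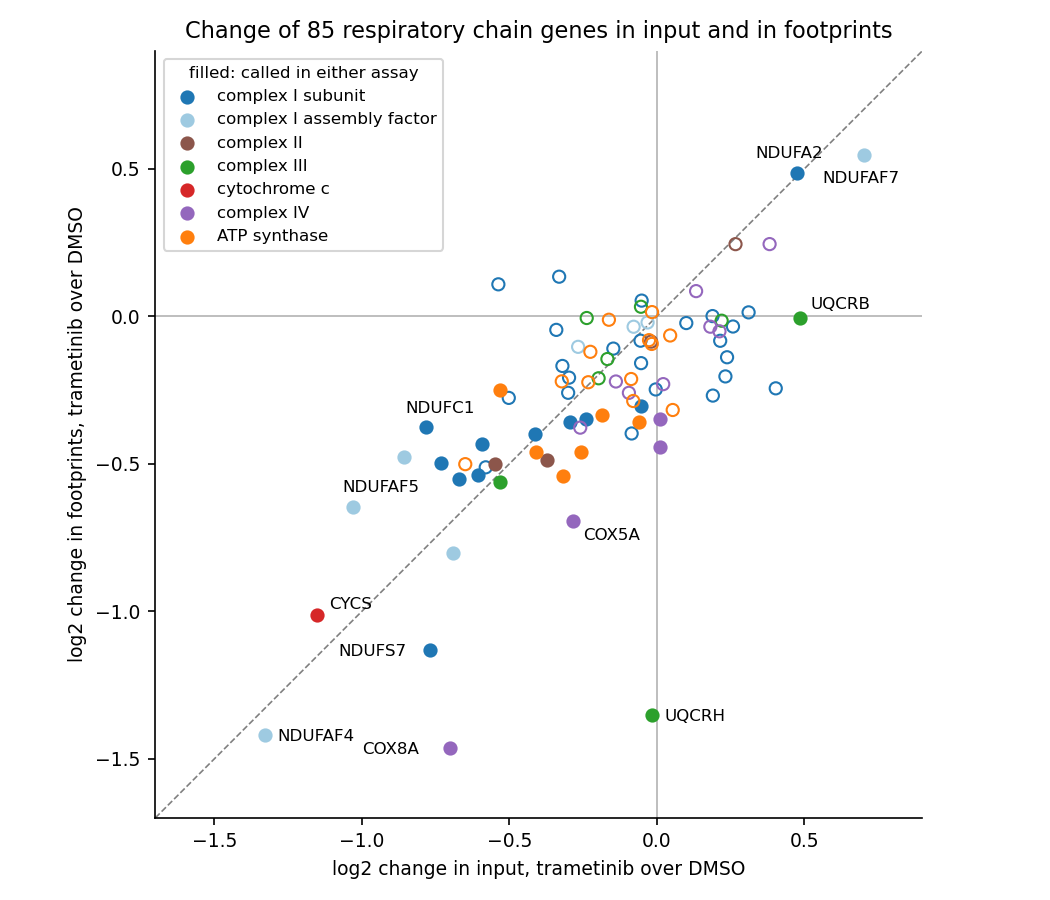
Log2 change (trametinib over DMSO) of the 85 tested members in input (horizontal axis) and in footprints (vertical axis), coloured by complex. Filled circles were called in at least 1 of the assays, open circles in neither, and the dashed line marks equal changes. Most filled circles lie in the lower left along the line, and UQCRH lies far below it.

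12 members were lower in both assays, 2 in input only and 15 in footprints only, and 53 were called in neither. Of the 15 that passed in footprints only, 1 (UQCRH) also passed the test of the difference between the assays. The other 14 are not shown to differ between input and footprints. Groups did not overlap in input for 23 members that were lower and 6 that were higher, where the background was 23.3% and 23.2% of tested genes. In footprints 35 were lower without overlap and 3 were higher, where the background was 30.3% and 29.3%. The calls were not equally firm. The 4 input falls of CYCS, NDUFAF4, NDUFAF5 and NDUFA6 were called under all 13 other settings, including each library left out, and the other 10 input falls were lost under at least 1 of them. In footprints, the falls of CYCS, NDUFAF4, NDUFAF5, NDUFAF8, NDUFS6, NDUFS7, CYC1, UQCRH, COX5A and COX8A were called under all 13, and the other 17 were lost with library totals. No rise was called under all 13. UQCRB in input was lost when trametinib input replicate 1 or 2 was left out. NDUFAF7 and NDUFA2 in footprints were each lost when any single trametinib footprint library was left out.

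**Figure D2:**
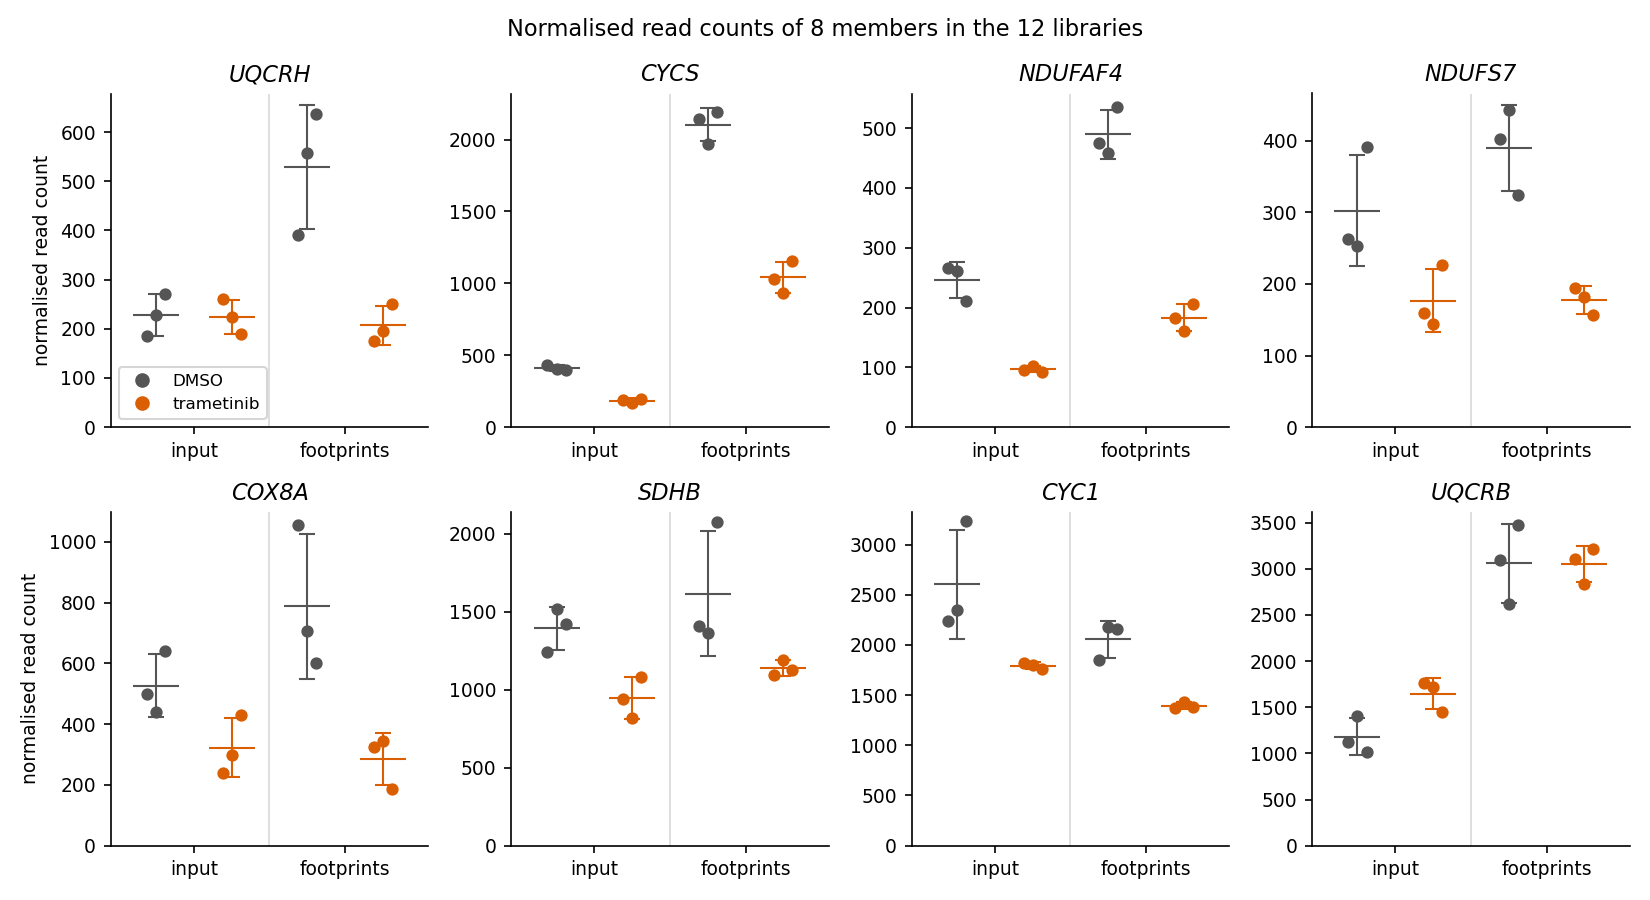
Normalised read counts (count divided by the library's median-of-ratios size factor, vertical axis from 0) of 8 members in all 12 libraries, input at the left and footprints at the right of each panel. Points are libraries, horizontal lines are means and bars are SD of 3 libraries. The 3 trametinib footprint libraries lie below the 3 DMSO libraries in 7 panels, and UQCRB, higher in input, is the exception.

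Cytochrome c (CYCS), the soluble carrier between complexes III and IV and a trigger of apoptosis when released, fell in both assays. Its normalised input count was 434, 402 and 400 in the DMSO libraries and 190, 165 and 198 with trametinib. All 3 treated libraries were below all 3 controls, at 44.7% of the DMSO mean. The log2 change was -1.15 (SE 0.17, adjusted p = 0.000213, edgeR). Its footprint count was 2142, 1972 and 2192 in DMSO and 1033, 934 and 1156 with trametinib, a log2 change of -1.01 (SE 0.12, adjusted p = 0.00017, edgeR). The groups were separated in footprints as well, and the estimate for ribosome density was 0.14 (SE 0.18), which was not called. Among the members CYCS also had a high ribosome density level, with footprint CPM above input CPM by 2.18 ± 0.0622 on the log2 scale in DMSO (SD, n = 3; CPM scales a count to the total of its library). This placed it at the percentile 99.3 of all tested genes.

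Complex I, the entry point for NADH, held the member whose mRNA fell most. NDUFAF4 is an assembly factor that is not part of the finished enzyme. Its input count fell from 265, 261 and 211 to 96.3, 103 and 92.5, a log2 change of -1.33 (SE 0.20, adjusted p = 0.000254, edgeR). Its footprints fell from 475, 458 and 536 to 182, 161 and 206, a log2 change of -1.42 (SE 0.12, adjusted p = 3.42e-05, edgeR). In both assays every treated library was below every control, at 39.6% and 37.4% of the DMSO mean. NDUFAF5, which modifies the subunit NDUFS7 during assembly, fell from 101, 90.7 and 82.0 to 43.3, 43.8 and 46.3 in input (log2 -1.03, SE 0.25), and its footprints fell by 0.65 on the log2 scale. NDUFAF2 fell by 0.86 in input and changed by -0.48 in footprints, the latter call being lost with library totals. NDUFAF8, the partner of NDUFAF5, fell by 0.80 in footprints, where its counts were 33.5, 47.5 and 39.1 in DMSO and 23.7, 19.3 and 25.2 with trametinib. NDUFAF7, a methyltransferase, was the exception, with footprints of 67.0, 87.9 and 102 in DMSO and 125, 125 and 124 with trametinib (log2 0.55, SE 0.17, adjusted p = 0.023, edgeR). Its input libraries overlapped and spread widely, from 32.4 to 140. NDUFAF1, NDUFAF3 and NDUFAF6 were not called. Of the 8 factors, 3 were lower in input (37.5%) and 4 in footprints (50.0%), beside 16.8% and 25.6% of all tested genes.

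Among the complex I subunits, 6 of 34 were lower and 0 higher in input, and 9 were lower and 1 higher in footprints. Their medians were -0.19 and -0.23. The 17.6% called lower in input and 26.5% in footprints were near the 16.8% and 25.6% of all tested genes. NDUFS7, a core subunit that carries an iron-sulfur cluster, fell most in footprints, from 402, 443 and 324 to 194, 182 and 157 (log2 -1.13, SE 0.15, adjusted p = 0.000345, edgeR), with no overlap. In input it was 263, 253 and 391 against 159, 144 and 226, a log2 change of -0.77 that also passed. NDUFS6, NDUFA6, NDUFAB1 and NDUFA12, all accessory subunits (NDUFAB1 is also the mitochondrial acyl carrier protein), were lower in both assays, with log2 changes from -0.73 to -0.43. NDUFC1 fell from 235, 244 and 283 to 137, 113 and 190 in input (log2 -0.78, SE 0.22, adjusted p = 0.0146, edgeR). Its footprints scattered, with 1410, 816 and 982 in DMSO and 959, 997 and 514 with trametinib, and were not called. NDUFS8, NDUFV1, NDUFA10 and NDUFV3 were lower in footprints with log2 changes from -0.40 to -0.31, all lost with library totals. NDUFA2 was higher in footprints (log2 0.49, SE 0.18, adjusted p = 0.0488), a call that was lost with median-of-ratios scaling. Of the core subunits that bind the flavin, the iron-sulfur clusters or ubiquinone, 1 of 6 tested was lower in input (16.7%) and 3 in footprints (50.0%). Of the accessory subunits 5 of 28 were lower in input (17.9%) and 6 in footprints (21.4%). NDUFV2, another core subunit, was listed with 0 to 6 counts in every library and was not tested (100% of its windows also occur in a transcript of another symbol), and NDUFC2 had 199 to 395 footprint counts but at most 10 in input.

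Complex II, succinate dehydrogenase, is the complex with no mitochondrially encoded subunit, and it also belongs to the tricarboxylic acid cycle. SDHB, its iron-sulfur subunit, was 1240, 1515 and 1421 in DMSO input and 939, 818 and 1082 with trametinib (log2 -0.55, SE 0.16, adjusted p = 0.0172, edgeR). In footprints it was 1406, 1361 and 2075 against 1095, 1191 and 1129 (log2 -0.50, SE 0.16, adjusted p = 0.031, edgeR). SDHB was separated between treatments in both assays. SDHC, which anchors the complex in the membrane with SDHD, had the opposite sign. Its footprints were 1378, 1532 and 1406 in DMSO and 1695, 1700 and 1714 with trametinib, all treated libraries being above the controls, but the log2 change of 0.24 (SE 0.10) had an adjusted p of 0.0725 by edgeR. With library totals SDHC was called higher at 0.42. SDHD fell by 0.49 in footprints and was not called in input. SDHA, the flavoprotein, was not called in either assay (36.1 to 83.7 normalised footprints). SDHA and SDHD were counted on 47.2% and 36.2% of their reading frames, because reads that match other gene symbols were not counted, and their values are uncertain. The call of SDHB in footprints was also lost with library totals.

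In complex III, UQCRH, the acidic hinge protein that helps cytochrome c1 meet cytochrome c, was the single member whose ribosome density passed the test. Its input count was 186, 229 and 272 in DMSO and 260, 224 and 190 with trametinib, with overlapping groups. Its footprint count was 390, 558 and 637 in DMSO and 175, 195 and 251 with trametinib, with no overlap. Ribosome density fell by 1.33 on the log2 scale (SE 0.30, adjusted p = 0.0487, edgeR), a 2.52-fold lower footprint yield per input read. This call lies at the threshold: it was lost with limma-trend (-1.31), with TMM scaling (-1.26), with library totals (-1.15) and in 9 of 12 fits that left out 1 library, while the estimates of all 12 lay between -1.17 and -1.51. It was kept with DESeq2, both looser filters and both blocks. UQCRH shares 72.8% of its 28-nt windows with the retrocopy UQCRHL, so that its counts rest on 27.2% of the frame and are uncertain. UQCRHL itself held 0 or 1 counts per input library.

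CYC1, cytochrome c1, fell in both assays. It was 2241, 2344 and 3231 in DMSO input and 1822, 1804 and 1758 with trametinib (log2 -0.53, SE 0.16), and 1846, 2174 and 2155 against 1367, 1436 and 1379 in footprints (log2 -0.56, SE 0.11, adjusted p = 0.00282, edgeR). The treated libraries were tight and below the controls in both assays. UQCRB, a small subunit at the ubiquinone-binding site, went the other way in input, with 1124, 1404 and 1014 in DMSO and 1759, 1724 and 1453 with trametinib (log2 0.49, SE 0.16, adjusted p = 0.0336, edgeR). Its footprints overlapped, at 2617 to 3474 in DMSO and 2833 to 3212 with trametinib. The difference between the assays was -0.49 (SE 0.21), with an adjusted p of 0.552. The core proteins UQCRC1 and UQCRC2, the iron-sulfur protein UQCRFS1, and UQCRQ and UQCR10 were not called.

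In complex IV, cytochrome c oxidase, 1 of 12 was lower in input and 7 of 12 estimates were above 0, with a median of 0.01. In footprints 4 were lower and the median was -0.24. As shares, 8.33% and 33.3% were lower, beside 16.8% and 25.6% of all tested genes, where footprints also had more calls. The density estimate was below 0 in 12 of 12 tested subunits, with a median of -0.23, but 0 passed the test (1 had an unadjusted p under 0.05, DESeq2 and limma-trend called 0). This uniform sign depends on the scaling and on single libraries: 11 of 12 were below 0 with TMM, 7 of 12 with library totals, and 10 to 12 when 1 library was left out. COX8A, a small subunit with tissue isoforms, fell from 498, 441 and 642 to 238, 299 and 429 in input (log2 -0.70, SE 0.23, adjusted p = 0.0306, edgeR). In footprints it fell from 1055, 705 and 601 to 323, 344 and 188 (log2 -1.46, SE 0.27, adjusted p = 0.00212, edgeR), the largest footprint fall of any member. Both assays were without overlap, and the density estimate of -0.75 (SE 0.38) had an adjusted p of 0.689. COX5A was 960, 1383 and 1416 in DMSO footprints and 747, 748 and 824 with trametinib (log2 -0.69, SE 0.15), with an input change of -0.28 that was not called. COX7C and COX4I1, the latter the common isoform of subunit 4, had flat input (both log2 0.01) and footprint changes of -0.44 and -0.35, lost with library totals. Where subunits come as isoforms, the ubiquitous form carried the counts. COX4I2, COX6B2 and COX8C held 0 or 1 counts in every library and NDUFA4L2 at most 10, whereas COX4I1, COX6B1, COX8A and NDUFA4 had mean normalised footprint counts in DMSO of 4973, 2289, 787 and 1802. The count of COX6B2 is uncertain, because 89.03% of its windows also occur in a transcript of another symbol. COX5B had log2 changes of 0.38 in input and 0.24 in footprints that were not called, and was called higher in footprints with library totals, at 0.42. COX7A2 and COX7B were not called, nor was COX7A2L, a supercomplex factor. COX6A1 was not called and was counted on 50.7% of its frame.

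In ATP synthase, 1 of 18 members was lower in input (ATP5PD) and 5 in footprints (ATP5F1B, ATP5ME, ATP5MG, ATP5MK and ATP5PB), with medians of -0.17 and -0.24. As shares, 5.56% and 27.8% were lower, beside 16.8% and 25.6% of all tested genes. 17 of 18 footprint estimates were below 0. ATP5MG, ATP5PO and ATP5MF were counted on 31.91%, 32.35% and 67.45% of their frames, and their values are uncertain. ATP5PB, the peripheral stalk subunit b, was 2083, 2746 and 2642 in DMSO footprints and 1633, 1554 and 1939 with trametinib (log2 -0.54, SE 0.14, adjusted p = 0.0121, edgeR), with no overlap. ATP5MK, a small membrane subunit, was 1475, 1808 and 1678 against 1111, 1092 and 1398 (log2 -0.46, SE 0.13). ATP5PD, subunit d of the stalk, was 1096, 1093 and 1143 against 777, 582 and 936 in input (log2 -0.53, SE 0.18, adjusted p = 0.0348, edgeR), and its footprint change of -0.25 was not called. All 5 footprint calls of ATP synthase were lost with library totals. The 3 genes for the identical mature c subunit of the rotor, ATP5MC1, ATP5MC2 and ATP5MC3, had footprint changes of -0.50, -0.32 and -0.22 that were not called. ATP5IF1, which inhibits the enzyme when it runs backwards, had log2 changes of -0.02 in input and 0.01 in footprints.

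In shares of all counts, the members together made up 1.24% ± 0.0799 (SD, n = 3) of DMSO input and 1.13% ± 0.0189 of trametinib input, and 2.09% ± 0.144 and 2.01% ± 0.0344 of footprints. The shares overlapped between treatments in footprints, and in input the highest trametinib library and the lowest DMSO library both stood at 1.15%, without overlap at further digits. The share of CYCS was lower without overlap: 0.0314% ± 0.00135 of DMSO footprints and 0.0176% ± 0.00173 of trametinib footprints. ATP synthase held 0.851% ± 0.0668 of DMSO footprints, complex I subunits 0.534% ± 0.0387, complex IV 0.377% ± 0.0146, complex III 0.211% ± 0.019 and complex II 0.0566% ± 0.0065.

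Levels were compared between genes per codon, over the 73 tested members whose frame was at least 90% unique among reading frames. Reads were mapped to transcripts, and 30 of the 73 share over 10% of their windows with transcripts of other symbols, which could lower their levels if such reads were lost. COX7C was 31.5% unique among transcripts, CYCS 26.4%, SDHC 33.3%, UQCRB 58.5%, ATP5F1E 60.3% and NDUFS5 71.1%. The median member had 1.27 footprint CPM per codon in DMSO, beside 0.0597 for all tested genes. COX7C, a subunit of complex IV, was highest at 10.1 ± 0.77 (SD, n = 3), followed by ATP5F1E, the epsilon subunit of F1, at 8.32 ± 1.01. The lowest COX7C library, at 9.58, lay just above the highest ATP5F1E library, at 9.42. NDUFAF5 was lowest at 0.0255 ± 0.00143. Subunits of a complex were not evenly covered. In ATP synthase the range was 7.60-fold, from ATP5F1D at 1.09 to ATP5F1E. In complex III it was 7.38-fold, from UQCRC2 at 0.558 to UQCRB at 4.12. In complex IV it was 31.0-fold, from COX7A2L at 0.328 to COX7C, and among complex I subunits 56.0-fold, from NDUFV3 at 0.0881 to NDUFS5 at 4.93. COX7A2L is a supercomplex factor, and the next lowest complex IV gene was COX5A at 1.25. The 2 measured complex II subunits differed 1.48-fold, with SDHC at 1.27 and SDHB at 0.860. With trametinib, SDHC and SDHB stood at 1.70 and 0.687, a 2.48-fold range. These levels divide by library totals, with which SDHC footprints were called higher at 0.42 and the SDHB call was lost. In DMSO the SDHB libraries were uneven, at 0.744, 0.737 and 1.10. Assembly factors had a median of 0.0840, below the 1.14 of complex I subunits. Over the 43 members that were unique among transcripts too, the DMSO median was 0.947 and the highest was NDUFA1 at 4.45, and the ranges were 3.72-fold in ATP synthase, 5.98-fold in complex III, 13.4-fold in complex IV and 50.6-fold among complex I subunits. The complex IV range again began at COX7A2L.

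**Figure D3:**
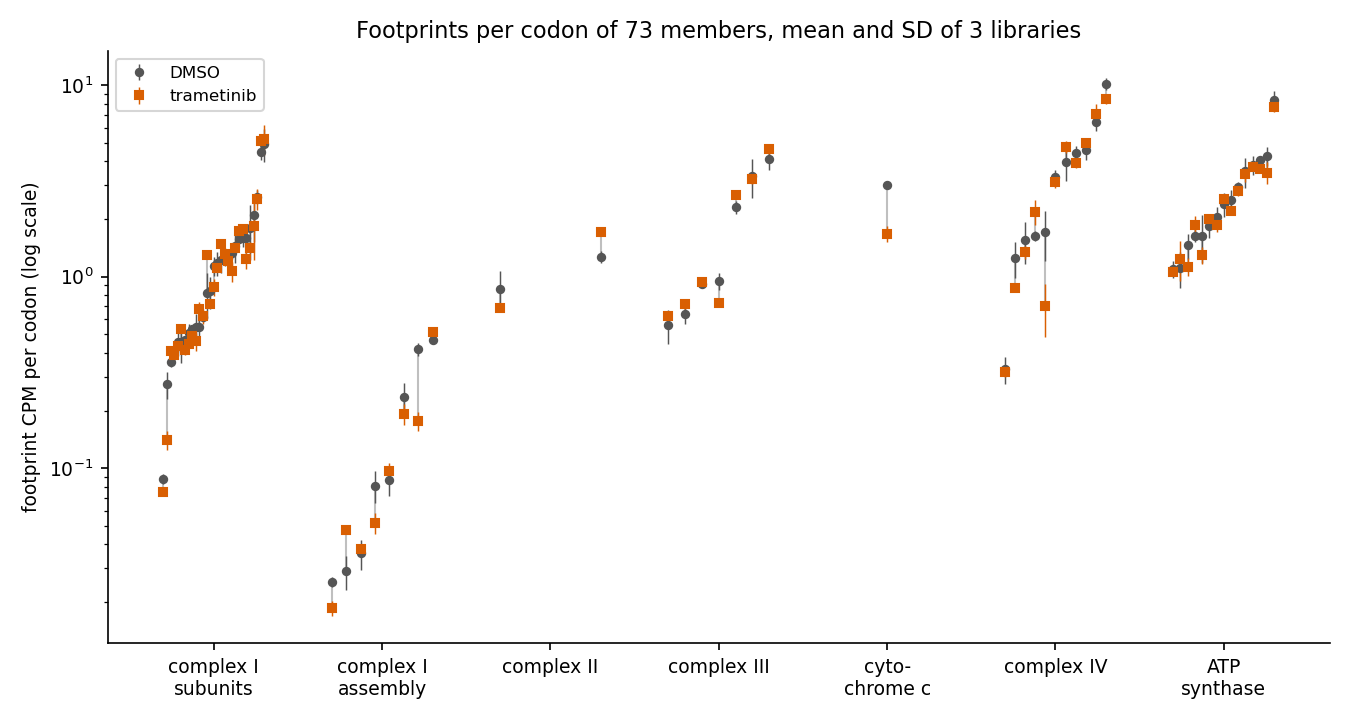
Footprint CPM per codon (log scale) of the 73 tested members with a unique frame, by complex and in rising order in DMSO. Circles are DMSO and squares trametinib, as mean and SD of 3 libraries, with a line joining the treatments of a gene. CYCS, COX8A, NDUFS7 and NDUFAF4 show the widest gaps, and assembly factors lie lowest.

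The members also carried more footprints per input read than most genes. Ribosome density in DMSO, as log2 of footprint CPM over input CPM, was above 0 in 76 of 85 members with a median of 0.99, beside -0.13 over all tested genes. Their frames are short, and short frames had higher values in general: tested genes under 150 codons had a median of 0.81 and longer ones -0.18. Members under 150 codons had a median of 1.27 and longer members 0.65. Reads around the start and stop weigh more in a short frame, and their part in these values was not tested.

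Annotated transcription starts were examined because mRNAs that begin with a C followed by pyrimidines (5'TOP mRNAs) depend on growth signalling for their translation. 0 of the 95 members carried the study's 5'TOP mark, which 106 genes had. Of the 75 members with a RefSeq promoter (GRCh38.p14), 9 had an annotated start with C and then 4 or more pyrimidines, which was 12.7% of tested members with a promoter and 5.77% of all tested genes. The windows run from 20 bases before to 10 bases after the annotated start, with the pyrimidine run at the start in capitals, and CYCS is given as a start without such a run. UQCRH is shown for its density call, and the others are the members with such a start and a unique frame.

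UQCRH, chr1:46303678-46303707, plus strand: ctgagtgacccttacaagtcCTTCTTgatc

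COX7C, chr5:86617921-86617950, plus strand: ccgccccatttcccatctttCTTTTCagtc

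COX4I1, chr16:85799675-85799704, plus strand: ctccgcggcgcggccttgctCTCTTCCggt

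COX7A2L, chr2:42361208-42361237, minus strand: cacagccggggaggcggggtCCTTCTCTgg

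ATP5MC2, chr12:53676074-53676103, minus strand: tcgctcttcccgctgctccgCCCCTCTCTg

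ATP5F1E, chr20:59032326-59032355, minus strand: ttccgcttctgtggtctgatCTTCCTgcgg

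NDUFC1, chr4:139302542-139302571, minus strand: ccccctcgcaatgggccccaCCTCCCgaga

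CYCS, chr7:25125251-25125280, minus strand: accggcgtgtccttggacttagagagtggg

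The density estimate was below 0 in 8 of these 9 members, with a median of -0.25, and in 34 of 62 tested members with another start, with a median of -0.05. NDUFC1 was the member above 0, at 0.41 (SE 0.38). Besides UQCRH, COX7C had -0.45 (SE 0.18), ATP5MC2 -0.37 (SE 0.23), COX4I1 -0.36 (SE 0.17), COX7A2L -0.25 (SE 0.26) and ATP5F1E -0.20 (SE 0.17), and none of these 5 passed. Over all tested genes with a promoter, 46 of 503 with such a start were lower in density (9.15%), against 35 of 8214 with another start (0.426%). Annotated starts were not measured in these cells. With library totals 7 of the 9 were below 0.

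**Figure D4:**
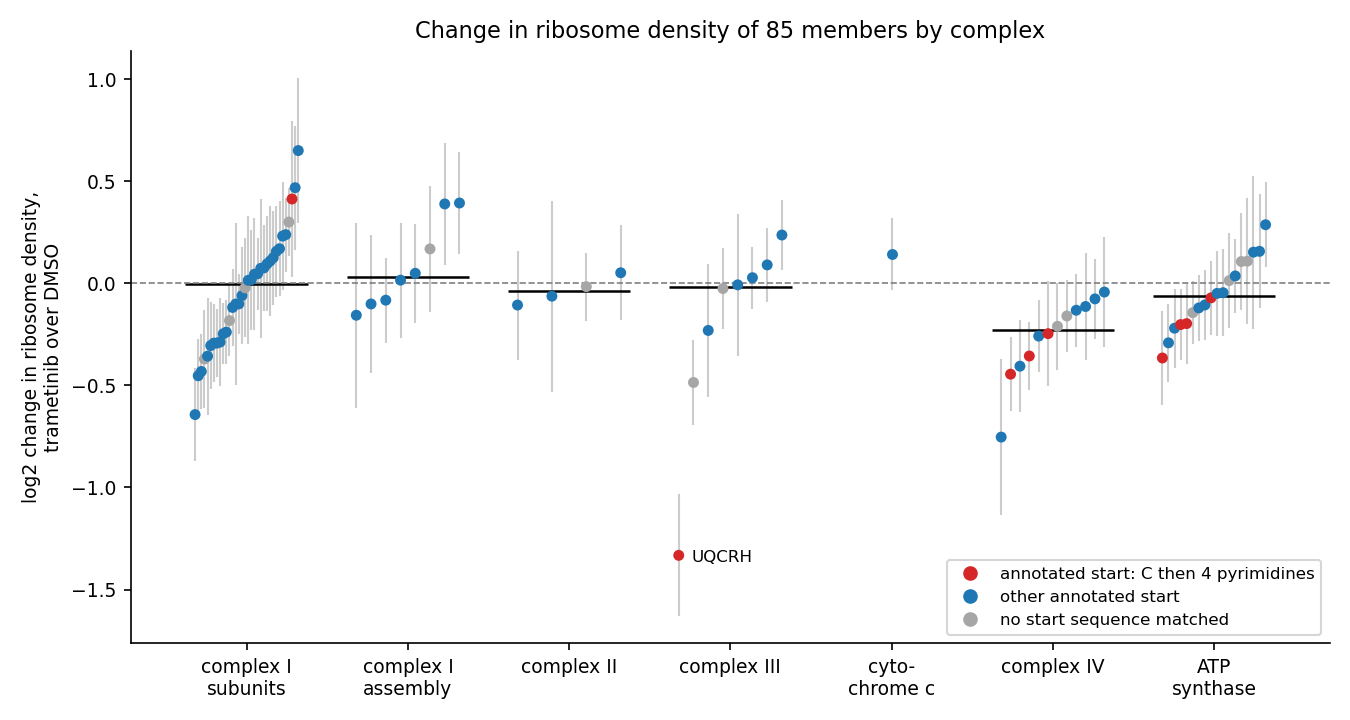
Log2 change in ribosome density (trametinib over DMSO) of the 85 tested members by complex, in rising order, with SE as vertical lines and the median of each complex as a horizontal line. Red points have an annotated start with C and then 4 or more pyrimidines, blue points another start, and grey points no matched start sequence. The 12 complex IV points lie below 0, and UQCRH lies lowest at -1.33.

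Promoters, from 250 bases before to 50 after the annotated start, were searched on both strands for fixed letters of 4 factors known at these genes. The core GCATGCGC of the NRF1 site (its reverse complement overlaps it, and a promoter was counted once) was in 16 of 71 tested members with a promoter (22.5%), beside 5.58% of all tested genes. The ETS letters CCGGAAG, bound by GA-binding protein among others, were in 28.2% beside 20.7%. The YY1 letters AAGATGGC were in 14.1% beside 6.01%, and the SP1 letters GGGCGG in 56.3% beside 73.1%. Of the 16 members with the NRF1 core, 7 were lower in input and 9 in footprints, with medians of -0.26 and -0.42. Of the 55 without it, 6 and 16 were lower, with medians of -0.15 and -0.24. Over all tested genes with the core, 19.1% were lower in input and 27.0% in footprints, beside 16.8% and 25.7% of those without. Among the 10 members with the YY1 letters, 3 were lower in input, with a median of -0.32. Without them it was 10 of 61, with a median of -0.09. The ETS letters gave 4 of 20 with them (median -0.06) and 9 of 51 without (-0.17). The SP1 letters gave 8 of 40 with them (median -0.08) and 5 of 31 without (-0.24). A lower input median with the letters was thus not limited to the NRF1 core. The 7 members that were lower in input with the core were also lower in footprints, out of 11 members that were lower in both and had a promoter. Of the 42 members called in neither assay with a promoter, 7 had the core. The 7 are shown with 30-base windows on the strand of the gene and the matched letters in capitals, followed by COX5B and NDUFB4 as members with the core that were not called with TMM scaling.

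CYCS, chr7:25125411-25125440, minus strand: catgctcgccaGCATGCGCgcgcaggtcct

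NDUFAF4, chr6:96897867-96897896, minus strand: ccctcacttgtGCGCATGCtccgggtgtcc

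NDUFAF5, chr20:13785014-13785043, plus strand: agccgcgctgGCGCATGCGCacaaaaagcg

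NDUFS7, chr19:1383823-1383852, plus strand: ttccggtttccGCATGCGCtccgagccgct

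NDUFS6, chr5:1801350-1801379, plus strand: ccagaagccgtGCGCATGCgttagcgctaa

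NDUFA6, chr22:42090920-42090949, minus strand: tctgtagatgaGCATGCGCagcacccaccg

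SDHB, chr1:17054214-17054243, minus strand: aagccaaatggGCATGCGCcgctactgcgc

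COX5B, chr2:97645915-97645944, plus strand: ggcagagctggGCATGCGCaatttccgccc

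NDUFB4, chr3:120596167-120596196, plus strand: agagcacttcGCGCATGCGCatatcaccga

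Counted from the annotated start, the matches began between position -200 in SDHB and position 6 in NDUFAF4. Input changed by 0.38 in COX5B and by 0.10 in NDUFB4, neither of which passed. A match of letters is a description and not evidence of binding.

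Regulators of mitochondrial biogenesis were mostly lower. Of 14 tested, 9 were lower in input (64.3%) and 12 in footprints (85.7%), beside 16.8% and 25.6% of all tested genes. 0 were higher, and the medians were -0.71 and -0.73. NRF1, a factor named for its role at these genes, had mean normalised counts of 147 ± 21.8 in DMSO input and 76.0 ± 12.9 with trametinib (SD, n = 3), a log2 change of -0.94 (SE 0.23, adjusted p = 0.00733, edgeR). Its footprints changed from 195 ± 19.4 to 88.3 ± 7.32 (log2 -1.14, SE 0.14). GABPB1, a subunit of GA-binding protein, had the largest fall in input (log2 -1.20, SE 0.26), whereas its partner GABPA had an estimate of 0.38 that was not called. The coactivator PPRC1, the growth regulator MYC and TFAM, which packages mitochondrial DNA, fell in input, with log2 changes of -1.11, -0.74 and -0.69. The footprint call of TFAM, at -0.51, was lost with library totals. PPARGC1A and ESRRG were near 0 and were not tested. No change of a regulator was called in ribosome density (0 of 14 by edgeR, with 0 at an unadjusted p under 0.05).

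The 13 mitochondrially encoded subunits, the partners of the members in complexes I, III, IV and ATP synthase, were called in 0 of 13 genes in input, footprints and density. In input 11 of 13 estimates were below 0 (median -0.35, 4 with an unadjusted p under 0.05), whereas in footprints 13 of 13 were above 0 (median 0.43, 1 with an unadjusted p under 0.05). Their density median was 0.80, with 3 at an unadjusted p under 0.05. The 13 genes moved together with single libraries. They held 1.34%, 1.99% and 0.646% of the counts of the DMSO footprint libraries and 2.15%, 2.07% and 2.05% with trametinib, so that DMSO replicate 3 lay far below the others. In input they held 4.41%, 4.63% and 4.90% in DMSO and 4.55%, 3.12% and 4.93% with trametinib, where replicate 2 alone was low and the groups overlapped. These genes are read by mitochondrial ribosomes, and the SE of their footprint changes ran from 0.29 in MT-ND4 to 0.38 in MT-ND4L. Per the methods, footprints came from the monosomal fractions of cells treated with cycloheximide. How well such footprints capture mitochondrial ribosomes was not tested.

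Of 42 other assembly factors tested, 7 were lower and 2 higher in input, and 19 were lower and 4 higher in footprints. As shares, 16.7% were lower in input and 45.2% in footprints, beside 16.8% and 25.6% of all tested genes. The largest called fall in input was that of CMC2, a complex IV factor (log2 -1.76, SE 0.29), and in footprints that of FOXRED1, a complex I factor (log2 -1.34, SE 0.18). COX15, which makes the haem A of complex IV, rose in both (log2 1.13, SE 0.19, and 1.22, SE 0.14). Of 18 genes of the tricarboxylic acid cycle and pyruvate dehydrogenase, 5 were lower (27.8%) and 0 higher in input. In footprints 4 were lower (22.2%) and 1 higher. FH, fumarate hydratase, fell by 1.09 in input, and CS, citrate synthase, fell by 1.00 in footprints, while IDH3G was higher in footprints at 0.45. Among 7 carriers and porins, 3 were lower in input (42.9%) and 4 in footprints (57.1%). VDAC2 had the largest input fall at -0.79, and SLC25A6, an ADP/ATP carrier, was the gene called in density, at -1.14 (SE 0.20, adjusted p = 0.00847, edgeR).

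**Figure D5:**
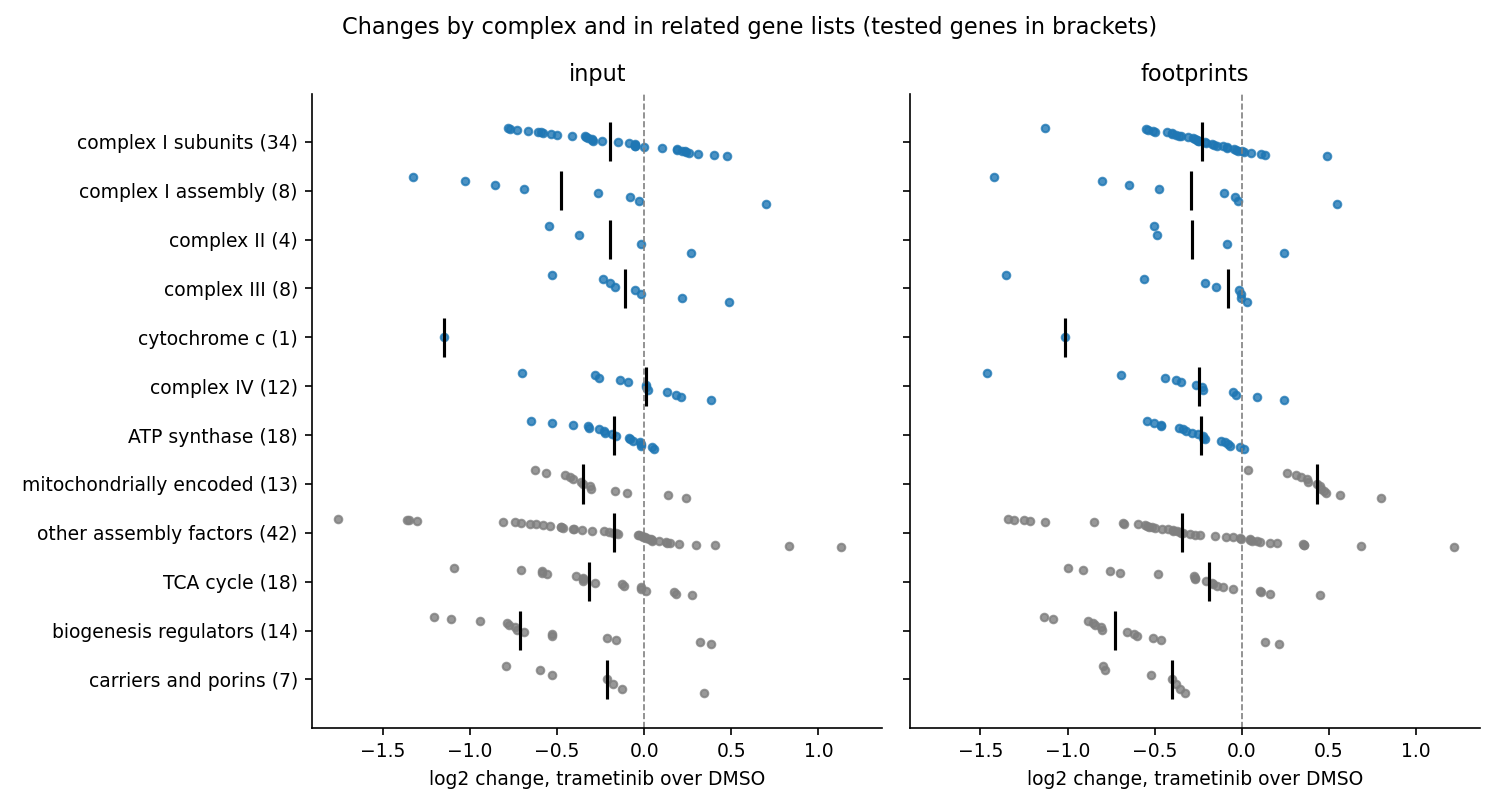
Log2 change (trametinib over DMSO) in input (left) and footprints (right) of every tested gene by complex (blue) and in the related lists (grey), with the number tested in brackets and the median as a black line. The biogenesis regulators have the lowest medians of the lists, -0.71 and -0.73, and the mitochondrially encoded subunits lie above 0 in footprints.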

How the data were processed

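Input and footprint libraries (3 each per treatment) were analysed from the deposited table. According to the methods of the study, the authors removed adapters with FASTX-toolkit, discarded rRNA and tRNA reads with Bowtie 1.2.2, mapped the rest to the basic Gencode 38 transcripts and counted 25 to 35 nt reads inside the reading frames of a single gene symbol. Per the file headers the table holds raw counts and the same counts divided by a DESeq2 size factor per library (signal, called normalised counts here). The authors computed these with DESeq2 1.46.0, and median-of-ratios factors recomputed here equalled theirs in 12 of 12 libraries within 1e-06. Columns of fold changes and adjusted p-values by the authors were not used. Reads shared between symbols were not counted, which lowers members with close copies or readthrough partners.

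All tests started from the raw counts of the whole table, with 10663 genes at 10 or more counts in 3 or more input libraries. edgeR 4.0.16 (quasi-likelihood test, R 4.3.3) was fitted to the 6 input and to the 6 footprint libraries with TMM scaling, and to all 12 libraries for the interaction of assay and treatment (ribosome density) with median-of-ratios scaling. P-values were adjusted by Benjamini-Hochberg over all tested genes, and adjusted p under 0.05 was called. The SE is the size of the coefficient over the square root of F. DESeq2 1.42.0, limma-trend (limma 3.58.1, prior count 2), other scalings and filters, blocks and each library left out were the alternatives. The fits were tested on simulated counts. Scaling between libraries hides a change common to all mRNAs.

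Codons and the share of 28-nt windows of a frame found in no other symbol's frame came from Gencode 44 on GRCh38, the build but not the release of the files, and a share under 90% is given as uncertain. CPM per codon divides by library totals. Promoters came from RefSeq (GRCh38.p14), where 75 of 95 members matched. NDUFA7, UQCR11, COX6A2, COX7A1 and COX7B2 were not analysed here. Members, lists, motifs and complexes were chosen with earlier results of these data known. Genes named were those called in density, the 2 largest called changes per complex and assay with a mean normalised count of at least 50, the complex II subunits, CYC1, CYCS, ATP5IF1, isoform sets, the highest and lowest subunit per codon and the largest called change of each list. Other genes named were added after their values were seen. Per the methods, input RNA was set aside from the lysate that was digested for footprints, so equal numbers within a treatment were taken as 1 lysate. For each pair, the correlation of the deviations from the group means was 0.80, 0.186 and 0.341 for the DMSO lysates, and 0.144, 0.070 and -0.116 for those with trametinib. The density test had no block, and the block of lysates was an alternative.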

Additional observations from a re-analysis of the deposited data

Results flagged for a closer look

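UQCRH was the single member whose treatment effect differed between footprints and input by the interaction test over 12 libraries, with a density change of -1.33 (SE 0.30, adjusted p = 0.0487, edgeR). Footprints were lower in 3 of 3 trametinib libraries than in every DMSO library, and input overlapped. The adjusted p ranged from 0.0035 with the dish block to 0.184 without trametinib input replicate 1.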

How the results depend on the processing

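In density, the count of members called lower was 1 and became 0 with limma-trend, TMM scaling and library totals, and 0 to 2 with 1 library left out. The member median in density was -0.06, and became 0.0075 with TMM scaling, 0.11 with library totals and -0.14 to 0.0026 with 1 library left out. In input, the replicate block gave 4 members higher, leaving out 1 library gave 0 to 3 higher and 4 to 16 lower, with 4 without trametinib input replicate 1 and 5 without trametinib input replicate 2. In footprints, the count higher was 1 with median-of-ratios scaling, 4 with library totals, 1 with the filter on either assay and 0 to 3 with 1 library left out. The count lower was 10 with library totals (median -0.0469) and 11 to 43 with 1 library left out, with 43 without DMSO footprints replicate 1, and 12 and 11 without trametinib footprints replicates 1 and 2. Leaving out 1 library leaves its group with 2, and the spread is then pooled over the remaining libraries. Without mitochondrially encoded genes the members' share was 1.18% in trametinib input and 2.05% in trametinib footprints. With frames 20 codons shorter the median level per codon was 1.52 in DMSO footprints, 1.48 in trametinib footprints, 0.764 in DMSO input and 0.649 in trametinib input. Over members unique among transcripts, a choice made after seeing the data, it was 0.988, 0.936, 0.555 and 0.442 in the same order. Of 2990 values of named genes under other settings, 2659 kept direction and call, 138 lost the call and 25 gained one. Another 168 values, not called under either setting, changed sign, 127 of them with 1 library left out, and 0 values called under either setting did. The causes were not tested.

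Across treatments, libraries share only a replicate number. The replicate block gave 4 higher and 17 lower members in input, 2 and 27 in footprints, and 0 and 1 in density. The block of lysates gave 0 and 1 in density and changed no call or sign of a named gene there.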
